A study of Mus musculus with 8 samples.

Results

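Mitochondrial protein import and folding was examined through 39 genes measured by 63 of the 55681 probes on each array, out of 22594 genes whose array symbol was found in a RefSeq gene table. The members were all genes named Tomm or Timm followed by a number, together with Oxa1l, Hspd1, Hspe1, Hspa9, Pmpca, Pmpcb, Grpel1, Grpel2, Samm50, Dnajc19, Chchd4, Mtx1, Mtx2, Immp1l and Immp2l, and each gene was read by its probe of highest mean log2 signal over the 8 arrays. Each array held the amplified cDNA of a single cell, picked by hand after trypsin treatment of the heart tube of E8.5 mouse embryos with 9 somites. The 4 WT cells carried Mesp1+/+ and Sox17flox/flox, and the 4 KO cells carried Mesp1Cre/+ and Sox17flox/flox, so the floxed allele of the transcription factor gene Sox17 was shared by both genotypes and Cre was present in the KO alone. Mesp1-Cre is active in early mesoderm, from which the cardiac lineages arise, and not in the myocardium alone. The comparison addresses whether loss of Sox17 in mesoderm altered the transcripts of myocardial cells. The genotypes also differed at Mesp1 and in Cre itself, which cannot be told apart here from loss of Sox17.

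Nearly all mitochondrial proteins are encoded in the nucleus, made in the cytosol and imported. The TOM complex of the outer membrane is the common entry gate. From there the TIM23 complex and its ATP-driven motor pull presequence proteins into the matrix, where peptidases cut the presequence and chaperones fold the chain, while small TIM chaperones escort carrier proteins to TIM22, the disulfide relay oxidises proteins of the intermembrane space, and the sorting and assembly machinery inserts outer membrane barrels. Cardiac muscle depends on mitochondria for its ATP, and its mitochondria expand and mature as the heart tube begins to beat.

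Which embryo or litter a cell came from is not in the labels. Each genotype therefore counted as 1 sample, genotypes were described without a test, and an SD given here describes how 4 cells differed among themselves, not how well the mean of a genotype is known. The WT and the KO arrays may lie on separate slides, and slide and genotype could then not be told apart. Both probes for Sox17 itself were at the floor and detected in 0 of the 8 cells, so the deleted gene gives no check of the genotype labels here. In WT cells 19.6% to 26% of all probes were well above background, against 17.1% to 24.3% in KO cells. Every cell had all 10 myocardial markers detected. From a list of 13 endothelial markers, each WT cell had 3 to 5 detected and each KO cell 2 to 5. According to the paper, PCR for marker genes was used to assign a cell type to each cDNA. These marker counts are therefore no independent check of cell type. Of 7 erythroid markers, 0 were detected in WT and 0 to 1 in KO cells, and their mean log2 signal was at the floor of 5.64 in each cell.

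Detection in a cell means here that the scanner software flagged the signal as well above background, and signals under 50 after scaling were set to 50. Of the 312 values of members in cells, 200 were detected, a share of 64.1%, against 25.4% over all genes. Among the 39 members, 11 (28.2%) were detected in all 8 cells, 19 in 4 to 7 cells, 6 in 1 to 3 cells and 3 in 0 cells. Over all genes, 9.71% were detected in all 8 cells and 46.7% in 0 cells. Import and folding genes were thus detected in more of these cells than genes in general. The members in 0 cells were Tomm40l, a relative of the pore gene Tomm40, Timm8a2, a paralogue of the small chaperone gene Timm8a1, and Immp2l, which encodes an inner membrane peptidase subunit. A single cell passes through heavy amplification before hybridisation, and a transcript lost there cannot be told apart from one that the cell lacked.

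**Figure D1:**
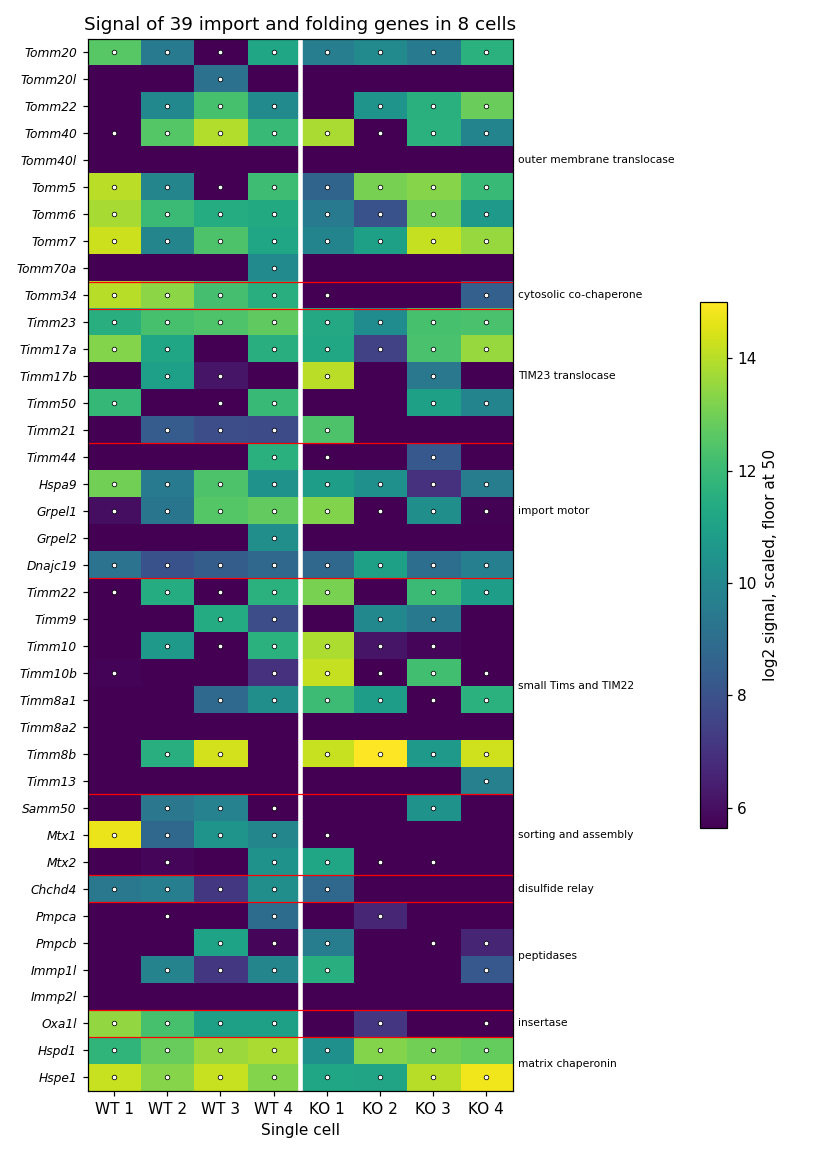
Log2 signal (colour, scaled, floor at 50) of the 39 import and folding genes (rows, grouped by role) in 8 single cells (columns). A white point marks a value well above background, 200 of 312 values are so marked, and the colours of different rows come from different probes and are not to be set against each other.

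The signals of a gene spread widely between cells. Of the 312 values, 179 lay above the floor, 96 in WT and 83 in KO cells, with a median signal of 2165 and a highest signal of 32135. Only 16 of these 179 values were under 200, while 119 were over 1000, so most members were either bright or at the floor in a given cell. In 21 further cases a member was called detected with a signal at the floor. The 20 members with detection in all 4 WT or all 4 KO cells had a median SD of 1.75 on the log2 scale between WT cells and 1.92 between KO cells. The 1678 genes of the same range of mean signal had median SDs of 1.49 and 2.02.

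In WT cells 1 to 4, the number of members detected was 19, 26, 28 and 32, and in KO cells 1 to 4 it was 26, 21, 25 and 23. WT cells averaged 26.2 ± 5.44 members and KO cells 23.8 ± 2.22 (SD, n = 4 cells each), a difference of -2.5 members that was smaller than the SD of the WT cells. WT cell 1 had the fewest members and WT cell 4 the most, so the KO cells lay inside the WT range. The share of all genes detected also varied, 22.6% to 32.0% in WT against 19.7% to 28.4% in KO cells.

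**Figure D2:**
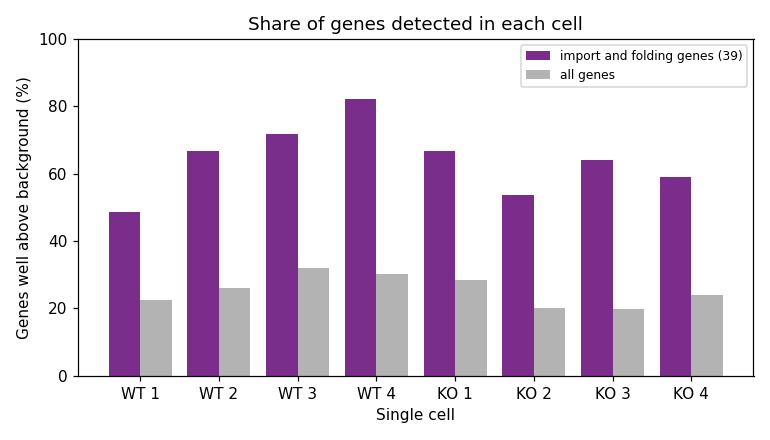
Percentage of genes well above background in each of the 8 cells (bars from 0), for the 39 import and folding genes and for all 22594 genes. The import and folding genes range from 48.7% in WT cell 1 to 82.1% in WT cell 4 and exceed all genes in each cell.

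The genotypes were compared over these 20 members, with 5-fold between mean signals (2.32 on the log2 scale) as the rule of size. At least 5-fold lower in KO were 4 members, Tomm34, Oxa1l, Mtx1 and Chchd4 (4 of 20), where 10.7% of the 3366 genes that passed the same filter were lower. At least 5-fold higher were 3 members, Timm8b, Timm10b and Timm8a1 (3 of 20), against 2.7% of all genes. With so few members these shares rest on single genes, and the 4 lower members had been picked by the study from these same arrays as lower in the mutant, so their direction is no independent evidence. These 4 were all the lower members. Of the 16 left without them, 3 were at least 5-fold higher, and 0 were lower by construction.

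The requirement of detection in all 4 cells of a genotype bears on these counts. Of the 20 members, 9 passed it through 1 genotype alone, 5 through WT and 4 through KO, and 7 of these 9 were at least 5-fold apart. Over the 1172 genes that passed through 1 genotype alone, 25.3% were at least 5-fold lower and 4.95% higher in KO. This pool mixes genes that passed through WT with genes that passed through KO. Its shares are therefore not a background for the 5 or for the 4 members taken apart. Among the 11 members detected in all 8 cells, 0 were 5-fold apart, where 2.87% of all such genes were lower and 1.5% higher. The median KO minus WT difference of the 20 members was -0.68 on the log2 scale, with 11 below 0 and 9 above 0, against 0.0 over all genes. When a cell was left out, the filter was rerun and the set of members changed. The median over the 21 members that then passed was 0.02 without KO cell 1 and 0.23 without KO cell 2. Over all 8 cells, the median without the 4 genes picked by the study was 0.35. This rise follows by construction from leaving out only lower members. For 14 of the 20 members the difference was smaller in size than the larger of the SDs of the genotypes.

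**Figure D3:**
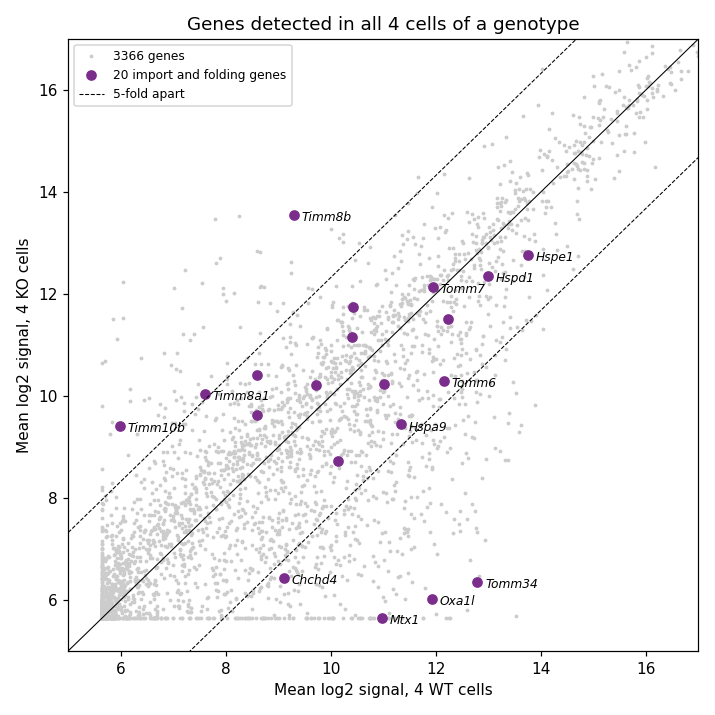
Mean log2 signal over 4 WT cells (x axis) against mean over 4 KO cells (y axis) for the 3366 genes detected in all 4 cells of a genotype (grey), with the 20 import and folding genes in purple. Dashed lines mark 5-fold, with 4 members under the lower line and 3 above the upper one.

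Tomm34 encodes a cytosolic co-chaperone that binds HSP70 and HSP90 and helps keep precursors fit for import. Its signal was 16388, 10572, 4854 and 3014 in WT cells 1 to 4, and at the floor of 50 in KO cells 1 to 3 and 368 in KO cell 4. KO cell 1 was called detected although its signal was at the floor. Every KO cell lay below every WT cell. WT cells had a mean log2 signal of 12.79 ± 1.10 and KO cells one of 6.36 ± 1.44 (SD, n = 4 cells), a difference of -6.43 that stayed between -7.15 and -6.03 when each cell was left out in turn. Since KO values at the floor are upper bounds, the size of this difference is a lower bound, as it is for Oxa1l, Mtx1 and Chchd4, and the order of these genes by size is not known. With no floor the differences were -8.31 for Tomm34, -8.54 for Mtx1, -7.77 for Oxa1l and -5.90 for Chchd4.

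Oxa1l, which encodes the insertase that places mitochondrially made and some imported proteins into the inner membrane, showed a like separation. Its signal was 11589, 4936, 1991 and 2013 in WT cells, and 50, 141, 50 and 50 in KO cells 1 to 4. KO cell 4 was called detected although its signal was at the floor. The groups did not overlap, and the means of 11.93 ± 1.22 and 6.02 ± 0.75 differed by -5.91, a lower bound in size. The array carried a further probe for this gene, whose start lies 657 bases farther along the plus strand. The opening 30 bases of both 60-base probes are given in mm9 coordinates of the whole probe, because both carry the name of this gene and did not give the same result. Whether both lie within its transcript was not tested.
Oxa1l probe of the results, chr14:54988259-54988318: tcttatttgtgtgtattaaaagagccctgg
Oxa1l further probe, chr14:54988916-54988975: cagccatactttaagaagaagctgaagtgt
The further probe was detected in 1 WT and 1 KO cell, with a signal of 703 in WT cell 2 and 50 in each of the others, and a difference of -0.95. The mean over both probes differed by -3.43, still past the rule.

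Mtx1 encodes metaxin 1, an outer membrane protein that works with the sorting and assembly machinery. Its signal was 26792, 448, 1420 and 976 in WT cells 1 to 4 and at the floor in all 4 KO cells, although KO cell 1 was called detected. WT cell 1 was far above the other 3 WT cells, and no WT cell overlapped the KO cells. The means of 10.98 ± 2.58 and 5.64 ± 0.00 differed by -5.34, a lower bound in size, and by -4.09 without WT cell 1.

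Chchd4 encodes MIA40, the oxidoreductase of the disulfide relay that traps small cysteine-rich proteins, among them the small TIM chaperones, in the intermembrane space. Its signal was 668, 794, 143 and 1236 in WT cells, and 436 in KO cell 1 and 50 in KO cells 2 to 4. KO cell 1 lay above WT cell 3, so the groups overlapped. The means of 9.11 ± 1.36 and 6.43 ± 1.56 differed by -2.69, a lower bound in size that is past 5-fold but was -2.25 after quantile normalization and -2.30 without WT cell 4, both under 5-fold. Of the 20 members, 3 (Tomm34, Oxa1l and Mtx1) had every KO cell below every WT cell, beside 3.27% of all genes. In 0 members every KO cell lay above, beside 2.41% of all genes. These 3 passed the filter through the WT cells alone and were picked by the study as lower, so they are no independent evidence. The shares are over all genes that passed through either or both genotypes.

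**Figure D4:**
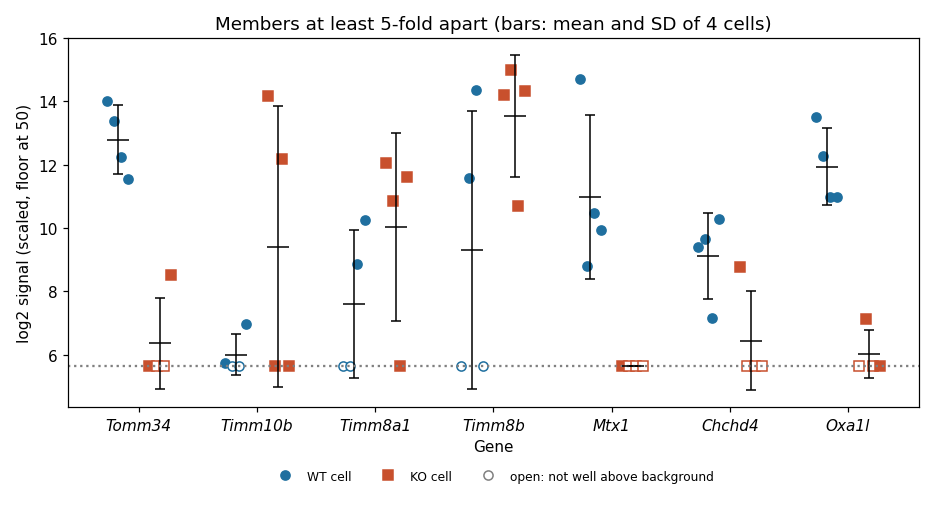
Log2 signal (scaled, floor at 50 shown as a dotted line) of the 7 import and folding genes at least 5-fold apart, one point per cell, with horizontal bars at the mean and vertical bars for the SD of 4 cells. Open symbols are not well above background. WT (blue circles) and KO cells (red squares) are apart without overlap for Tomm34, Mtx1 and Oxa1l and overlap for the other 4 genes.

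The 3 higher members all belonged to the small TIM chaperones, which carry hydrophobic precursors across the intermembrane space. Timm8b, whose product forms such a chaperone, was at 50, 3026, 21026 and 50 in WT cells 1 to 4, and at 18803, 32135, 1654 and 20348 in KO cells. WT cells 1 and 4 were at the floor and not detected, whereas WT cell 3 was brighter than 3 of the 4 KO cells. The means of 9.30 ± 4.38 and 13.54 ± 1.93 differed by 4.24, a difference smaller than the SD of the WT cells. It remained past 5-fold under each of the 16 settings tried for it, between 3.02 and 5.93 when cells were left out.

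Timm10b encodes a small TIM protein that docks the chaperones at the TIM22 complex. Its signal was 53, 50, 50 and 125 in WT cells, and 18531, 50, 4653 and 50 in KO cells 1 to 4. KO cells 1 and 3 alone were bright, and KO cells 2 and 4 were at the floor with the WT cells. The means of 5.99 ± 0.65 and 9.41 ± 4.43 differed by 3.42, and by 1.83 without KO cell 1. A further probe, which starts 493 bases farther along the plus strand, read the gene differently, and the opening 30 bases of both are shown for that reason with the mm9 position of each whole probe.
Timm10b probe of the results, chr7:112789787-112789846: tgtacagagagattgagcttgaaagctggg
Timm10b further probe, chr7:112790280-112790339: caggaatgttgaccatttccccaatttact
The further probe was at 86 in WT cell 2 and at 50 in the other 7 cells, a difference of -0.20. The mean over both probes differed by 1.61, which is under 5-fold.

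Timm8a1, the mouse counterpart of the human deafness dystonia gene TIMM8A, was at 50, 50, 463 and 1224 in WT cells and at 4252, 1838, 50 and 3132 in KO cells 1 to 4. WT cells 1 and 2 and KO cell 3 were at the floor. The difference of 2.44 lay just past 5-fold and fell under it in 7 of 16 settings, among them 2.15 with scaling over all probes and 1.77 without KO cell 1. Its probes map to chromosome 10 although the gene lies on chromosome X, so which copy of the sequence was read was not tested. Timm22, the channel subunit of the carrier translocase, differed by 1.81 on means of 8.59 ± 3.40 and 10.40 ± 3.30. The 3 higher genes each passed the filter on detection through the KO cells alone, so their shared sign is in part set by that filter. Timm10b in KO cells 2 and 4 and Timm8a1 in KO cell 3 were flagged as detected with a signal at the floor. Timm9 and Timm10, which did not pass it, were at 0.05 and -0.52, and Timm13 was detected in KO cell 4 alone.

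Of the TOM subunits and receptors, the 5 members that passed were detected in all 8 cells, and 0 of them were 5-fold apart. Tomm7, a small TOM subunit that tunes the assembly of the complex, was at 20210, 967, 5325 and 2271 in WT cells and at 926, 1981, 18406 and 12015 in KO cells. Cells of both genotypes spanned the same range. Its difference of 0.19 was the smallest among members detected in all 8 cells, and its sign was not kept with scaling over all probes (-0.15) or without KO cell 3 (-0.48). Tomm6, another small subunit, was at 14133, 4197, 2760 and 2590 in WT cells and at 724, 257, 8300 and 1635 in KO cells, so that KO cell 3 alone reached into the WT range, and it differed by -1.85. Tomm40, the pore itself, differed by -0.78, Tomm5 by 1.34 and the presequence receptor Tomm20 by 0.50, each with an SD larger than its difference. The other receptors, Tomm22 and Tomm70a, did not pass, with detection in 6 cells and in 1 cell.

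Timm23, the channel of the presequence translocase, had the smallest SD between WT cells among the 20 members that passed. Its signal was 2915, 4969, 5441 and 6664 in WT cells, and 2518, 1157, 4924 and 5041 in KO cells 1 to 4. KO cells 1 and 2 lay below all WT cells, and KO cells 3 and 4 lay among them. The means of 12.23 ± 0.51 and 11.51 ± 1.0 differed by -0.72. Its partner Timm17a differed by 0.74, with WT cell 3 alone at the floor. Timm17b, Timm50 and Timm21, which form and regulate this translocase, were each detected in 4 or 5 cells and did not pass.

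Hspa9, which encodes mortalin, the HSP70 at the centre of the import motor, differed by -1.90, next to -1.85 for Tomm6, among members detected in all 8 cells, and this order turned under quantile normalization (-1.38 and -1.69). Its signal was 8170, 751, 5367 and 1370 in WT cells and 1869, 1301, 128 and 758 in KO cells. WT cells 1 and 3 were above all other cells, and KO cell 3 was the lowest. The means were 11.34 ± 1.62 and 9.44 ± 1.72, and the difference lay between -2.49 and -1.08 when each cell was left out. Grpel1, the nucleotide exchange factor of mortalin, was spread widely in both genotypes, 64 to 6971 in WT and 50 to 9550.4 in KO cells, and differed by -1.43. Dnajc19, a J protein of the motor, differed by 1.01 on means of 8.60 ± 0.52 and 9.62 ± 0.97, while its other probes differed by 0.44 and -0.06.

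The matrix chaperonin was detected in every cell. Hspd1, which encodes HSP60, was at 3499, 7247, 12437 and 14435 in WT cells and at 1312, 9816, 8206 and 7131 in KO cells 1 to 4. KO cell 1 was the lowest of all, and the other 3 KO cells lay within the WT range. The means of 13.00 ± 0.93 and 12.36 ± 1.35 differed by -0.65, which became 0.02 without KO cell 1. Hspe1, its HSP10 lid, was at 19101, 9976, 19086 and 9868 in WT cells and at 2327, 2234, 16251 and 28548 in KO cells. KO cells 1 and 2 lay below all WT cells and KO cell 4 above them, and the means of 13.75 ± 0.55 and 12.77 ± 1.90 differed by -0.97. The signals of both genes did not follow the same order of cells. Among WT cells Hspd1 was lowest in WT cell 1, where Hspe1 was about as high as in WT cell 3 and above WT cells 2 and 4.

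The presequence peptidase subunits Pmpca and Pmpcb, the inner membrane peptidase subunits Immp1l and Immp2l, the barrel insertase Samm50 and the metaxin Mtx2 did not pass the filter, and neither did Timm44 and Grpel2 of the motor. Their detection ranged from 0 cells for Immp2l to 5 cells for Pmpcb, Immp1l and Mtx2. In all, 19 members did not pass, and their differences ranged from -1.15 for Grpel2 to 1.58 for Timm17b, with many values at the floor.

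The members were also summed up per cell as a score, the mean over the 30 members detected in at least 4 of 8 cells of log2 signal minus the mean of that gene over the 8 cells. WT cells 1 to 4 scored -0.22, 0.25, 0.11 and 0.74, and KO cells 1 to 4 scored 0.66, -1.29, 0.00 and -0.25. KO cell 2 was the lowest and stood apart, while KO cell 1 was nearly as high as WT cell 4. The means of 0.22 ± 0.40 and -0.22 ± 0.81 differed by -0.44, less than the SD of the KO cells. Without the 4 genes picked by the study the score of 26 members was -0.14 ± 0.59 in WT and 0.14 ± 0.92 in KO cells. The difference was then 0.27. The genes left out were all the members at least 5-fold lower, so this rise follows by construction.

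Many genes of this machinery have processed copies elsewhere in the genome. Of the 63 probes, 59 had a position in the files, 11 of them on another chromosome than the gene, and the chosen probes of 6 members (Tomm20, Tomm5, Timm23, Timm8a1, Hspd1 and Hspe1) were among these. Which copy these probes read was not tested. Further probes of 21 members gave 24 pairs of the chosen and a further probe, of which 13 had the same sign of difference, 7 had the further probe at 0.0 and 4 had opposite signs. Among the 6 members named, the differences were -0.72 and -0.50 for Timm23, 1.34 and 1.14 for Tomm5, and 2.44 and 2.24 for Timm8a1. They were -0.97, -0.79 and -0.54 for Hspe1, while Tomm20 had 0.50 for the chosen and -0.01 and 0.16 for the further probes. Elsewhere probes of a gene parted, as for Timm22 (1.81 and 0.0), Grpel1 (-1.43 and 0.0) and Timm17a (0.74 and -0.20). The 29 members whose chosen probe lay on the chromosome of the gene held all 4 lower members and 2 of the 3 higher ones, with a median difference of -1.10 over the 14 that passed.

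A further 42 genes of import, processing and folding that are not among the members were read in the same way, and 16 of them passed the filter on detection. Of these, 3 were at least 5-fold lower (18.8%) and 1 was higher (6.25%), beside 10.7% and 2.7% of all genes. With so few genes these shares rest on single genes. The median difference of the 16 was -0.29. Chchd3, a subunit of the cristae-shaping MICOS complex, was at 1926, 1499.6, 3400.3 and 1865 in WT cells, and at 1191 in KO cell 3 and 50 in the other KO cells. Every KO cell lay below every WT cell, with a difference of -4.23, and this gene too was picked by the study as lower. Dnaja1, a cytosolic J protein, differed by -2.79 and the motor subunit Pam16 by -2.38, and without KO cell 1 or KO cell 2, respectively, by -1.32 and -0.88. Mtch2, an outer membrane insertase, was the higher gene at 3.77, with 2 WT and 4 KO cells detected. Chchd3 and Dnaja1 passed the filter through the WT cells alone and Mtch2 through the KO cells alone. Timmdc1, a complex I assembly factor of the TIM17 family, differed by 0.01, and the cytosolic chaperone Hsp90ab1 by 0.00. The chosen probes of Dnaja1, Pam16 and Timmdc1 lie on another chromosome than the gene, and which copy they read was not tested.

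Promoters were read from the RefSeq table of GRCm38.p6, as 300 bases from 250 before to 50 after the start. Of the 39 members, 34 matched, with 37 promoters. The letters CCGGAAG are a core bound by ETS factors such as GABP, which is known for controlling nuclear genes of mitochondrial proteins. They stood on either strand in 16 of the 37 (43.2%), against 8.86% of all 32851 promoters and 11.6% of the 21263 promoters of coding genes. Counted by gene, 15 of 34 had them. Some of these windows overlap and hold the same match, as for the windows of Tomm34 and for those of Hspd1 and Hspe1. Member promoters had a median GC content of 60.0% against 56.3% of coding promoters, and among the 7392 coding promoters within the members' interquartile range of GC content 17.1% held the letters. Of the 7 members that were 5-fold apart, the letters stood in the windows of lower genes (Tomm34 and Mtx1) and higher genes (Timm8b and Timm10b). In Timm10b they lay after the start. They were not in the windows of Oxa1l, Chchd4 and Timm8a1. The palindrome CACGTG stood in 6 promoters (16.2%, against 7.15% of all), the heat shock letters GAANNTTC in 3 (8.11%, against 7.86%) and GCGCATGCG in 1 (2.7%, against 1.75%). A match is a description of the letters and not a site.

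The windows of 5 members are shown to set lower, higher and unmatched promoters side by side, with the motif letters of either strand in capitals. In the window of Hspe1, which shares 285 bases with a window of the divergent gene Hspd1, GAANNTTC and CCGGAAG overlap in 1 run of capitals.
Hspe1, chr1:55087898-55088197, plus strand: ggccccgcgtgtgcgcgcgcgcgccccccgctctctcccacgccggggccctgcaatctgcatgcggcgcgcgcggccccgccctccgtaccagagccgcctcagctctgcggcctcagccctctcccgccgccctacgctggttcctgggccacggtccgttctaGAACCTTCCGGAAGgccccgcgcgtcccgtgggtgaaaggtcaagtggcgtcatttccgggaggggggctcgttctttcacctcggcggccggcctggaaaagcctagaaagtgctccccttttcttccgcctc
Tomm34 (lower in KO), chr2:164071053-164071352, minus strand: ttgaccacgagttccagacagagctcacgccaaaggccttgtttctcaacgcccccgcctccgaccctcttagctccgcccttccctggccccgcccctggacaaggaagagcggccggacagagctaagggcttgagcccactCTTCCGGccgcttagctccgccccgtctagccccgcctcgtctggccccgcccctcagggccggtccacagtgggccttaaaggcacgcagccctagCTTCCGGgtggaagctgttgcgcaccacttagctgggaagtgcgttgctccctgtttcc
Mtx1 (lower in KO), chr3:89213858-89214157, minus strand: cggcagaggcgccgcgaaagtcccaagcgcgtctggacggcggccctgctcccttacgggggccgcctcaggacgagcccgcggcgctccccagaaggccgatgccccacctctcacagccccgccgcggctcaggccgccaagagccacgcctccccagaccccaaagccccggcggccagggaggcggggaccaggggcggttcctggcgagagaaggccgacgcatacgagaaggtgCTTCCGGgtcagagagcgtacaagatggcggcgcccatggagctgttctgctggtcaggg
Oxa1l (lower in KO, no match), chr14:54360591-54360890, plus strand: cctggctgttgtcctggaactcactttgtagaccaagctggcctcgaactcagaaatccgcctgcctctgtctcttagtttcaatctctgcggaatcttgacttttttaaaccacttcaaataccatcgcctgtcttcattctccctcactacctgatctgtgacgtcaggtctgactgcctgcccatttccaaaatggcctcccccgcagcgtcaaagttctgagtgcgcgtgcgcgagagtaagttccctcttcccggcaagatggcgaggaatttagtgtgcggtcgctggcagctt
Timm8b (higher in KO), chr9:50603651-50603950, plus strand: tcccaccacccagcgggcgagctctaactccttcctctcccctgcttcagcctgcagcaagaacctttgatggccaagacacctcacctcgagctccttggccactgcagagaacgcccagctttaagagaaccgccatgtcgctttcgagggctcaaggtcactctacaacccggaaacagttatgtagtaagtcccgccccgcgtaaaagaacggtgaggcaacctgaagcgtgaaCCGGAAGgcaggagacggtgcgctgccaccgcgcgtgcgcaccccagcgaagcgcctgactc
In Tomm34, Mtx1 and Timm8b a single motif, CCGGAAG, gave all the capitals. The same letters therefore stood before genes whose differences between KO and WT cells had opposite signs.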

How the data were processed

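Amplified cDNA of 8 single cells (4 WT, 4 KO) was read on one-colour Agilent arrays with probes of 60 bases. The deposited files were scanner output of Agilent's Feature Extraction software (12.0.2.2, per the file headers). Linear intensity values as deposited were used: the background-corrected processed signal and, for an alternative, mean spot and median background intensity, with the flags of the software for signal well above background and for outlier spots. The authors state that they scaled arrays on the 50th percentile and set levels under 50 to 50. A sheet of the authors' gene lists was read only to see which members the study had picked, and none of its values was used.

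Control spots and outlier spots (146 to 220 per array) were left out, 0 spots were saturated, and replicate spots were averaged as log2 signals. Each array was shifted, by -0.76 to 0.68 on the log2 scale, to the same 50th percentile over the 5301 probes well above background on all 8 arrays, and values were then floored at 50. Values at the floor have no order, and signals of different probes were not compared. The number of arrays (8) limits the precision. A gene passed the filter on detection in all 4 WT or all 4 KO cells, and genotype means were compared by a 5-fold rule, the size used by the study, with no test. Symbols are those of the array's design, probe positions are in mm9 as the files give them, and exon, intron and UTR annotation in that build was not used here.

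Values in every cell are given for members 5-fold apart, detected in 4 cells of 1 genotype and 0 of the other (0 members), with the 5 highest mean signals, differing most and least among those detected in all 8 cells, the Hspd1 and Hspe1 pair, and the members the study picked. The members and lists were chosen with earlier results of these data known. Alternatives concerned the floor, scaling, background correction, detection filter, fold, probes of a gene, single cells and the genes picked by the study. Tools were Python 3.11.15 with pandas 2.3.3 and numpy 2.4.6, and R 4.3.3 with limma 3.58.1 (normexp with an offset of 50, and quantile normalization). The scripts were tested on simulated data.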

Additional observations from a re-analysis of the deposited data

Results flagged for a closer look

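Of 31 sets of 4 cells examined, each the log2 signals of 1 member detected in all 4 cells of 1 genotype, 1 had a cell far from the others. This was Hspd1 in KO cells, where KO cell 1, at a signal of 1312, lay below the other 3 cells (7131 to 9816) by a gap of 0.841 of the whole range, above Dixon's critical value for 4 values. Chance alone gives about 1 such set in 20, so 1 among 31 is not unusual. Sets with an undetected cell, such as Tomm34 in KO cells, were not examined.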

How the results depend on the processing

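No paired analysis was possible because a shared replicate number is all that links a WT to a KO cell, and no difference between genotypes was tested. The cause of each change given here was not tested, except where fewer genes or cells explain it by construction. Lower and higher counts in KO among all genes were 550 and 151 with no floor, 634 and 151 with detection in at least 3 of 4 cells, 761 and 201 with no filter, 63 and 33 with detection in all 8 cells (members 0 and 0), 167 and 43 at 10-fold, and 777 and 421 at 2-fold (members 7 and 6). Without the genes picked by the study 0 members were lower and the median difference was 0.35. The genes left out were all the lower members, so both moved this way by construction. With only probes on the chromosome of the gene, a setting chosen after seeing the data, 6 members were detected in all 8 cells. With 1 cell left out in turn, the median difference ranged from -0.95 to 0.23, members lower from 3 to 6 and higher from 2 to 4, all genes lower from 358 to 662 (the latter without WT cell 1) and higher from 93 to 172 (without KO cell 3). The filter was rerun each time a cell was left out, so that 20 to 25 members passed. The other settings over all members gave 3 to 5 lower, 2 to 4 higher and a median difference of -1.01 to -0.18. Normexp with quantile normalization moved the median of all genes by 0.23 and no floor by 0.14, and the member medians there were -0.92 and -0.68. Of the named genes, 264 values kept their direction and side of 5-fold or moved by less than the spread between cells, 8 moved, and 0 reversed past the rule. Depth of detection limits the comparison, since 19 of 39 members did not pass.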

Other observations

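Among the further genes of import and folding, 2 that did not pass the filter on detection had means more than 5-fold apart, and they were picked out after their values were seen. Dnaja3, which encodes the mitochondrial J protein TID1, was at 265, 50, 184 and 894 in WT cells 1 to 4, and at 5776, 13416, 50 and 3525 in KO cells 1 to 4. KO cell 3 was at the floor and the other 3 KO cells lay above all WT cells, with a difference of 3.15. Aifm1, the import partner of the disulfide relay protein MIA40, was detected in 1 WT and 3 KO cells and differed by 2.77. Its signal was 2223 in WT cell 2 and 50 in the other WT cells, and 1230.2, 5249, 1884 and 50 in KO cells 1 to 4, so the genotypes overlapped.

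Phb2, a prohibitin of the inner membrane that the study had also picked as lower, was detected in all 8 cells. Its signal was 3366, 1248, 3839 and 3442 in WT cells, and 335, 519, 881 and 1233 in KO cells. Every KO cell lay below every WT cell, and the difference of -2.05 was under the 5-fold rule. Its partner Phb differed by -0.09. Hspa8, the cytosolic HSP70 that hands precursors to the TOM complex, differed by -1.01 on means of 15.99 ± 0.31 in WT and 14.98 ± 0.60 in KO cells, with KO cell 3 alone inside the WT range. Its chosen probe lies on another chromosome than the gene, and which copy it reads was not tested.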
